A study of Arabidopsis thaliana with 24 samples.

Results

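The ribosomal stalk is a flexible arm on the large (60S) subunit of the cytoplasmic ribosome, and 10 Arabidopsis genes for its P0, P1 and P2 proteins were followed here. They were chosen by locus, as 3 genes for P0, 3 for P1 and 4 for P2, and each of the 10 had a probe set of its own among the 16552 genes that could be tested. P0 sits on the ribosomal RNA at the GTPase centre and carries pairs of the acidic proteins P1 and P2, whose tails reach out to the elongation factors. The stalk thereby recruits eEF2 and the complex of eEF1A with aminoacyl-tRNA to the ribosome. P1 and P2 can leave and rejoin the ribosome, and plants have a further acidic protein, P3.

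RNA of shoots and of roots was hybridized to whole-transcript Affymetrix arrays (Arabidopsis Gene 1.1 ST). The plants were wild type (WT, Col-0) or OX.7.5, a single line in the Col-0 background that overexpresses the selective autophagy receptor NBR1. The transgene, driven by a constitutive viral promoter, encodes NBR1 with a TAP tag at its C-terminus. At an age of 33 days they had been kept in sufficient sulfur (nS) or had, per the methods, spent 4 days in sulfur deficit (-S). There were 8 groups of 3 biological replicates and thus 24 arrays, and a label silent on sulphate was taken to mean nS. The labels mention soil, whereas the methods describe hydroponic boxes. Sample numbers run separately for nS and for -S, and a difference between these runs cannot be told apart from the effect of -S.

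Values are log2 probe-set signals, so a difference of 1 is a doubling. The median of an array was 3.92 to 3.973 for shoots but 2.575 to 2.633 for roots, and levels were therefore not compared between organs. Replicates of a group correlated with r between 0.9735 and 0.9912 over probe sets. The measured markers were brighter relative to the array median in the labelled organ, 2 of them without falling under it in the other. RCA, the activase of Rubisco, read 10.58 to 11.32 on shoot arrays but 1.54 to 2.62 on root arrays, while the root-hair expansins EXPA7 and EXPA18 lay under the array median on all 12 shoot arrays and above it on all 12 root arrays. PYK10, a beta-glucosidase of roots, and LHCB4.1, a chlorophyll-binding protein of shoots, were above the median on all arrays of both organs, LHCB4.1 at 8.98 to 9.75 in shoots and 2.85 to 3.69 in roots. Only 3 of 20 listed shoot markers and 3 of 23 root markers had a probe set annotated to that gene alone. Genes with such a probe set are called measured here. The other listed genes may still be on the array, since 11079 probe sets had no gene in the annotation. Whole organs were extracted, so a shift in cell types and a change of RNA per cell cannot be told apart.

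In roots the stalk genes rose under -S in both lines. With limma over all arrays and a Benjamini-Hochberg adjusted p under 0.05 as the call, 7 of the 10 rose in WT and 8 of 10 in OX.7.5, and none fell. The number in OX.7.5 was 4 without its nS replicate 1, and 5 without its nS replicate 2 or its -S replicate 2. Over all genes tested, 12.5% rose and 10.1% fell in WT roots, and 10.5% rose and 9.89% fell in OX.7.5 roots. The median change of the 10 was 0.72 in WT roots and 0.50 in OX.7.5 roots, beside -0.06 and -0.02 over all genes. By the fold change of at least 1.5 and unadjusted p under 0.05 of the study's methods, 6 rose in WT, where 9.57% of all genes did, and 4 in OX.7.5, where 8.15% did. For 8 of 10 in WT and 9 of 10 in OX.7.5, all 3 -S arrays lay above all 3 nS arrays, an arrangement found for 17.0% and 17.3% of all genes. In shoots no stalk gene was called in either line.

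**Figure D1:**
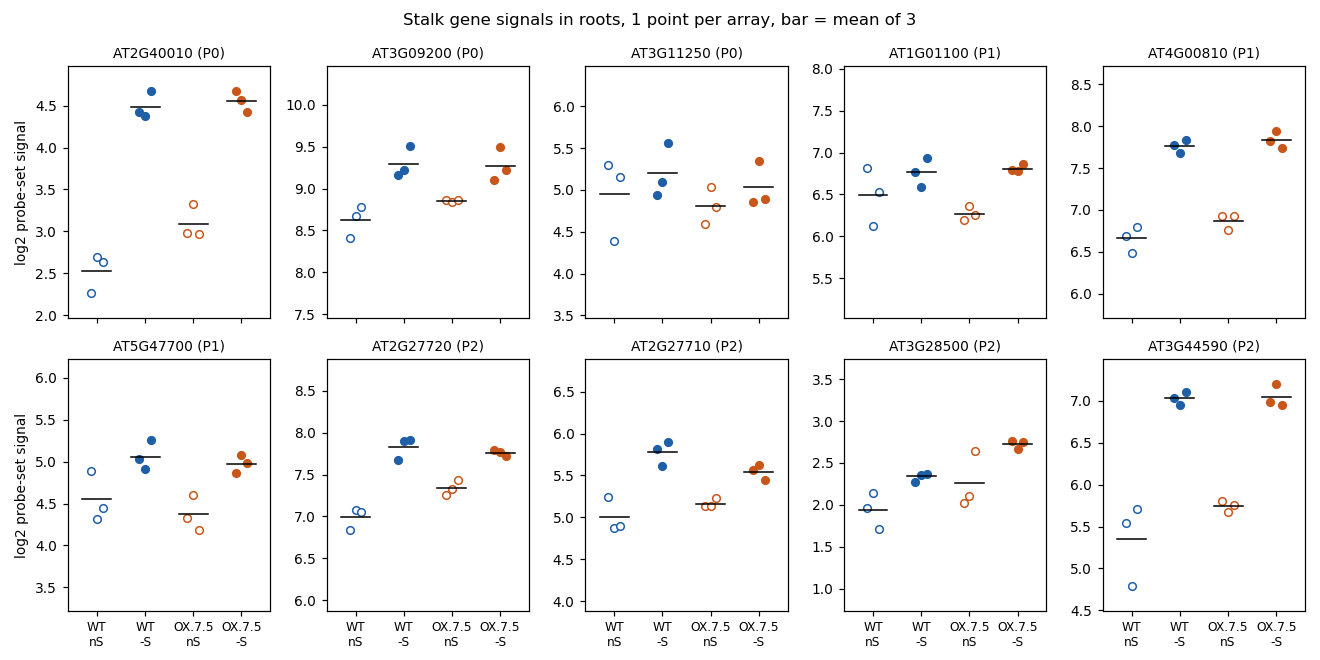
Log2 probe-set signal (y axis, each panel spanning 3 units) of the 10 stalk genes on the 12 root arrays, 1 point per array, open for nS and filled for -S, blue for WT and orange for OX.7.5, with a bar at the mean of 3. The -S points stand clear of the nS points for AT2G40010, AT4G00810 and AT3G44590, and mix with them for AT3G11250.

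Among the genes for P0, the core of the stalk, AT2G40010 changed most. Its signals in WT roots were 2.26, 2.69 and 2.63 in nS and 4.43, 4.38 and 4.67 in -S, means of 2.53 ± 0.23 and 4.49 ± 0.15 (SD, n = 3). The groups were far apart, the rise being 1.96 (SE 0.17), a 3.90-fold change with an adjusted p of 3.2e-09. In OX.7.5 roots it stood at 2.98, 3.33 and 2.97 in nS and at 4.68, 4.57 and 4.43 in -S. This rise of 1.47 (SE 0.17) was 2.76-fold, with an adjusted p of 4.4e-07. The lines thus overlapped in -S and not in nS, where all 3 arrays of OX.7.5 were above those of WT. On 2 of the 3 WT nS arrays the signal was under the array median, so the starting level in WT was dim.

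AT2G40010 has a second probe set of its own, whose mean over all arrays was 1.87 against 4.55 for the one used above. On that dimmer probe set the root changes were 0.03 in WT and 0.02 in OX.7.5 (SE 0.17 each, adjusted p of 0.911 and 0.964), and its signal was under the array median on every array. The rise of AT2G40010 was thus seen by 1 of its 2 probe sets, and with the dimmer one in its place 6 stalk genes in WT and 7 in OX.7.5 rose in roots.

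AT3G09200, also a P0 gene, read 8.41, 8.67 and 8.78 in WT roots in nS and 9.16, 9.22 and 9.51 in -S. The rise was 0.68 (SE 0.14, adjusted p of 0.00068), 1.60-fold, with no overlap between the groups. In OX.7.5 its nS arrays were nearly alike at 8.86, 8.84 and 8.87, and its -S arrays read 9.10, 9.50 and 9.22. All -S arrays were again the higher ones, by 0.42 on average (SE 0.14, adjusted p of 0.0313). This call in OX.7.5 rested on single arrays, since the adjusted p was 0.0719, 0.0826 and 0.0664 without nS replicate 1, 2 or 3 and 0.19 and 0.0532 without -S replicate 2 or 3.

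The third P0 gene, AT3G11250, was the least responsive. In WT roots it ran from 4.39 to 5.30 in nS and from 4.94 to 5.56 in -S, and in OX.7.5 from 4.59 to 5.03 and from 4.85 to 5.35. Its groups overlapped in both lines, with changes of 0.25 and 0.22 (SE 0.24) whose 95% intervals reached from -0.25 to 0.75 and from -0.28 to 0.72. Because of this spread a rise of the size seen for AT3G09200 lies within the interval, and the gene cannot be said to be unresponsive.

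P1 is 1 of the acidic partners that P0 carries. AT4G00810 rose most clearly of the 3 genes for it, from 6.69, 6.49 and 6.80 to 7.78, 7.68 and 7.84 in WT roots and from 6.93, 6.76 and 6.93 to 7.82, 7.94 and 7.74 in OX.7.5. These rises were 1.11 and 0.96 (SE 0.13), or 2.16-fold and 1.94-fold, with adjusted p of 3.6e-07 and 3.7e-06. No -S array came down to an nS array in either line.

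For AT5G47700 the root changes were rises of 0.51 in WT and 0.60 in OX.7.5 (SE 0.16, adjusted p of 0.0231 and 0.00814). Its WT arrays read 4.89, 4.32 and 4.45 in nS and 5.03, 4.91 and 5.26 in -S, where the highest nS array nearly touched the lowest -S array. Those of OX.7.5 read 4.33, 4.60 and 4.18 in nS and 4.87, 5.08 and 4.98 in -S. The WT call was lost without WT nS replicate 2 or 3 (adjusted p of 0.123 and 0.0741), without WT -S replicate 3 (0.124) and after renewed quantile normalization (0.0693), and that of OX.7.5 without its nS replicate 3 (0.0535).

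AT1G01100, the remaining P1 gene, was called in OX.7.5 and not in WT. In OX.7.5 roots it went from 6.19, 6.36 and 6.25 to 6.79, 6.78 and 6.86, a rise of 0.54 (SE 0.15, adjusted p of 0.0125). The WT nS arrays were scattered, at 6.82, 6.12 and 6.53, and reached above 2 of the WT -S arrays, at 6.77, 6.59 and 6.94. The WT change of 0.28 did not pass (SE 0.15, adjusted p of 0.219). It passed without WT nS replicate 1 (0.0487), and the OX.7.5 call was lost without nS replicate 1 of that line (0.0504). The difference between the lines in this response was 0.26 (SE 0.22, adjusted p of 0.753) and was not called.

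P2 forms the pair with P1. AT3G44590 had the largest P2 change, from 5.54, 4.79 and 5.71 to 7.04, 6.95 and 7.11 in WT roots, a rise of 1.69 (SE 0.21, adjusted p of 1.9e-06), or 3.22-fold. WT nS replicate 2 was low, and the other 2 nS arrays of WT were also more than 1 log2 unit under every -S array. In OX.7.5 its signals were 5.81, 5.67 and 5.76 in nS and 6.99, 7.20 and 6.95 in -S. Here the rise was 1.30 (SE 0.21, adjusted p of 6.4e-05), or 2.47-fold.

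AT2G27710 and AT2G27720 are neighbouring P2 genes on chromosome 2, and both rose in both lines. AT2G27720 read 6.84, 7.08 and 7.05 in WT nS roots and 7.67, 7.90 and 7.91 in -S, a rise of 0.84 (SE 0.13, adjusted p of 1.8e-05). In OX.7.5 it read 7.26, 7.33 and 7.43 in nS and 7.79, 7.77 and 7.72 in -S, a rise of 0.42 (SE 0.13, adjusted p of 0.0186). The smaller OX.7.5 value came with higher nS arrays, the -S arrays of the lines lying close together.

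For AT2G27710 the WT root arrays were 5.24, 4.87 and 4.90 in nS and 5.82, 5.61 and 5.90 in -S, and those of OX.7.5 were 5.13, 5.14 and 5.23 in nS and 5.56, 5.63 and 5.45 in -S. Its rises were 0.77 and 0.38 (SE 0.13, adjusted p of 7.8e-05 and 0.0394). The calls of both neighbours in WT held with any array left out, and those in OX.7.5 did not. Without OX.7.5 nS replicate 1 or 2, or -S replicate 1 or 2, the adjusted p of AT2G27710 was 0.107, 0.104, 0.0971 and 0.136, and that of AT2G27720 was 0.0736, 0.0538, 0.0593 and 0.0513. Without nS replicate 3 that of AT2G27710 was 0.058, and after renewed quantile normalization it was 0.0625.

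AT3G28500, the fourth P2 gene, was dim, under the array median on all 12 shoot arrays and on 8 of 12 root arrays. In WT roots it stood at 1.96, 2.14 and 1.71 in nS and at 2.27, 2.36 and 2.37 in -S. In OX.7.5 it stood at 2.02, 2.11 and 2.64 and at 2.76, 2.66 and 2.75. All -S arrays were above all nS arrays in both lines, yet the changes of 0.40 and 0.47 (SE 0.19, adjusted p of 0.14 and 0.0872) were not called. The OX.7.5 change was called without its nS replicate 3 (0.66, adjusted p of 0.0208), the array nearest to -S, or without WT shoots nS replicate 1 (0.47, adjusted p of 0.0382).

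**Figure D2:**
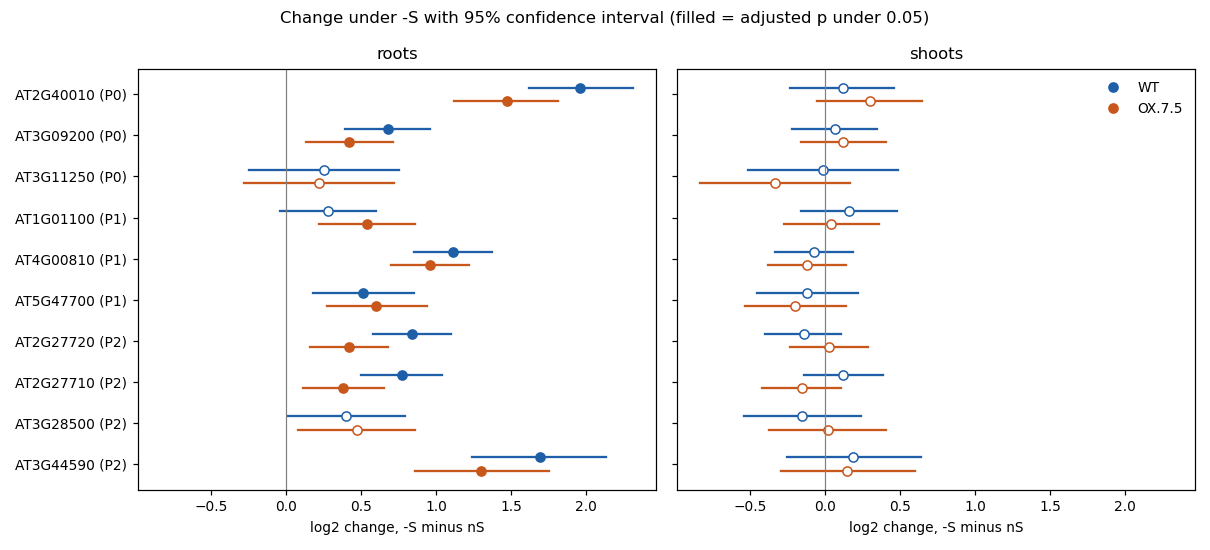
Change under -S of each stalk gene (x axis, log2, -S minus nS) with its 95% confidence interval, roots on the left and shoots on the right, blue for WT and orange for OX.7.5, filled where the adjusted p was under 0.05. In roots all 20 points lie above 0, from 0.22 to 1.96, and 15 are filled; in shoots they lie between -0.33 and 0.30 and none is filled.

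By class, 2 of 3 P0 genes, 2 of 3 P1 genes and 3 of 4 P2 genes rose in WT roots, with median changes of 0.68, 0.51 and 0.81. In OX.7.5 roots 2 of 3, 3 of 3 and 3 of 4 rose, with medians of 0.42, 0.60 and 0.44. Each class thus held genes with a large rise beside genes with a small one. The rise was spread over the genes of a class unequally, since AT2G40010, AT4G00810 and AT3G44590 reached at least 0.96 in both lines while all other stalk genes stayed at 0.84 or less. Genes of a class are closely related, and how far a probe set also answers to a sister gene was not tested.

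In shoots the same genes moved little. None of the 10 passed in WT, where 24.6% of all genes were called in either direction, or in OX.7.5, where 15.1% were, and none had an unadjusted p under 0.05 in limma. The fit without moderation also called none. The changes ran from -0.15 to 0.19 in WT shoots and from -0.33 to 0.30 in OX.7.5 shoots, with medians of 0.03 and 0.02. For AT2G40010 the WT shoot arrays read 5.29, 5.37 and 5.20 in nS and 5.56, 5.62 and 5.03 in -S, a change of 0.12 whose 95% interval of -0.23 to 0.46 stops short of the rise in roots. AT4G00810 read 7.30, 6.79 and 7.06 in nS and 6.95, 6.98 and 7.00 in -S, a change of -0.07 with an interval from -0.33 to 0.19. AT3G44590 read 4.83, 4.78 and 4.81 in nS and 5.28, 5.30 and 4.43 in -S. Here -S replicate 3 went below the nS arrays and the other -S arrays went above them, so that the interval of the change of 0.19 reached from -0.25 to 0.64.

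**Figure D3:**
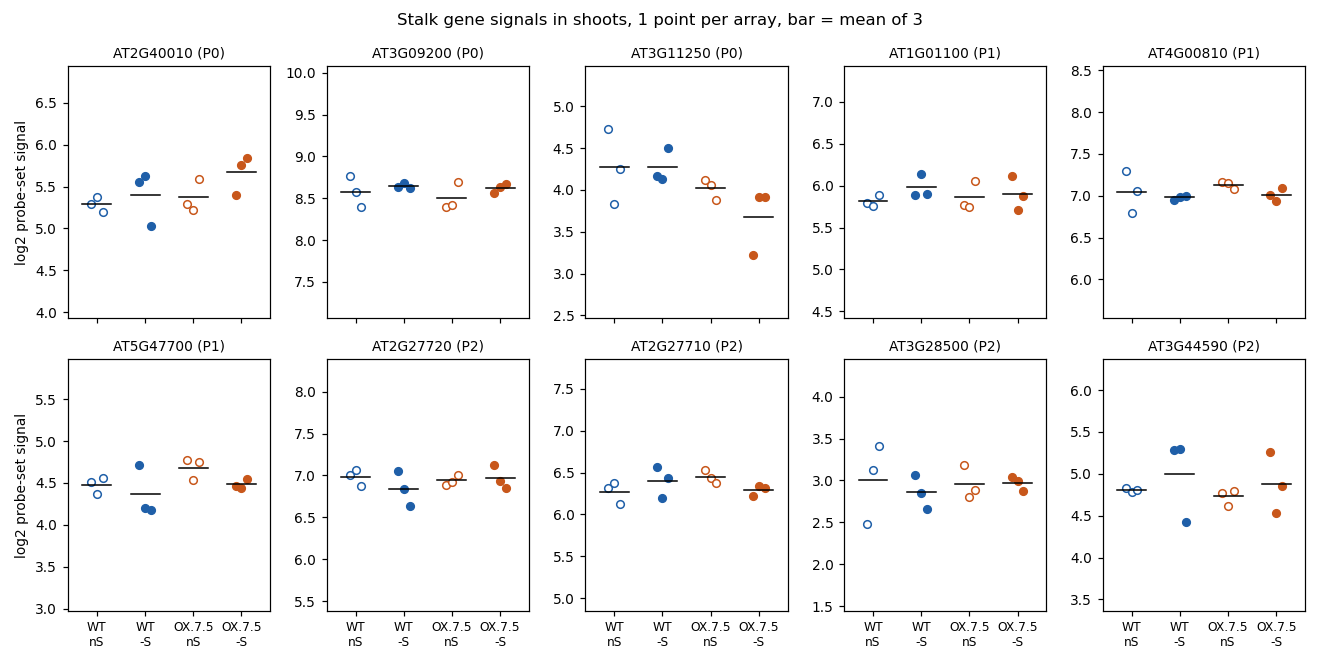
Log2 probe-set signal (y axis, each panel spanning 3 units) of the 10 stalk genes on the 12 shoot arrays, drawn as for roots with 1 point per array and a bar at the mean of 3. The nS and -S points mix for nearly all genes; for AT3G11250 the 3 OX.7.5 -S points, from 3.22 to 3.92, are all under the 3 WT -S points, from 4.13 to 4.50.

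Whether the response differed between the organs was tested as the root change minus the shoot change in 1 model. In WT 6 of 10 stalk genes had a larger change in roots, where 12.1% of all genes did, and in OX.7.5 5 of 10, where 7.88% did. None had a larger change in shoots, and all 10 differences were above 0 in each line, with medians of 0.64 and 0.54 beside -0.01 and 0.00 over all genes. The difference was 1.85 in WT and 1.17 in OX.7.5 for AT2G40010 (SE 0.24), 1.18 and 1.08 for AT4G00810 (SE 0.18), and 1.49 and 1.15 for AT3G44590 (SE 0.30). On the dimmer probe set of AT2G40010 it was 0.17 and 0.08 (adjusted p of 0.659 and 0.874), which ends both calls of that gene. AT2G27710 was called in both lines as well, at 0.65 and 0.53 (SE 0.18). In OX.7.5 its adjusted p was 0.0489, close to the threshold, and the call was kept in only 8 of the 24 fits with 1 array left out. Another 3 calls were made in 1 line each, for AT3G09200 (0.61, SE 0.20) and AT2G27720 (0.98, SE 0.18) in WT and for AT5G47700 (0.80, SE 0.23) in OX.7.5. That of AT3G09200 was lost without any 1 of 4 arrays (adjusted p from 0.0515 to 0.0872), and that of AT5G47700 without OX.7.5 roots nS replicate 3 (0.0515).

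No stalk gene differed between the lines past the threshold. In OX.7.5 minus WT, 0 of 10 were called in roots in nS, where 0.852% of all genes were, and 0 of 10 in roots in -S, where 0% were. In shoots 0 of 10 were called in nS and in -S, beside 1.70% and 0.0785% of all genes. At an unadjusted p under 0.05 the numbers were 2 in nS roots, 0 in -S roots, 0 in nS shoots and 1 in -S shoots. Of all 16552 genes, 2305, 633, 1784 and 1017 passed in the same order. The fit without moderation called none of the stalk genes. In nS roots 7 of the 10 were above 0, with a median of 0.23 beside -0.01 over all genes. AT2G40010 stood 0.56 higher in OX.7.5 (SE 0.17, unadjusted p of 0.00261, adjusted p of 0.103) and AT2G27720 stood 0.35 higher (SE 0.13, unadjusted p of 0.00985, adjusted p of 0.186). On the dimmer probe set of AT2G40010 this difference was -0.01 (unadjusted p of 0.939). For both genes by the probe sets used, and for AT3G09200 at 0.24 (SE 0.14, adjusted p of 0.476), all 3 OX.7.5 arrays lay above the 3 WT arrays. All 4 P2 genes were above 0 in this comparison, between 0.16 and 0.40, while 2 of the 3 P1 genes were below 0, at -0.22 and -0.18. In -S roots the line differences lay between -0.23 and 0.39, 5 above 0 and a median of 0.00. The largest was that of AT3G28500 (SE 0.19, unadjusted p of 0.0514 by limma), whose OX.7.5 arrays all lay above those of WT. For AT2G27710 in nS shoots the OX.7.5 arrays also lay above those of WT, by 0.18 on average (SE 0.13, adjusted p of 0.728). Under -S in shoots the single difference with an unadjusted p under 0.05 was that of the P0 gene AT3G11250, -0.58 (SE 0.24, unadjusted p of 0.0242, adjusted p of 0.705), with no overlap between the lines. This gene was dim there, under the array median on all 3 OX.7.5 -S shoot arrays. For how many of all genes the lines do not overlap was not counted, in roots or in shoots.

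**Figure D4:**
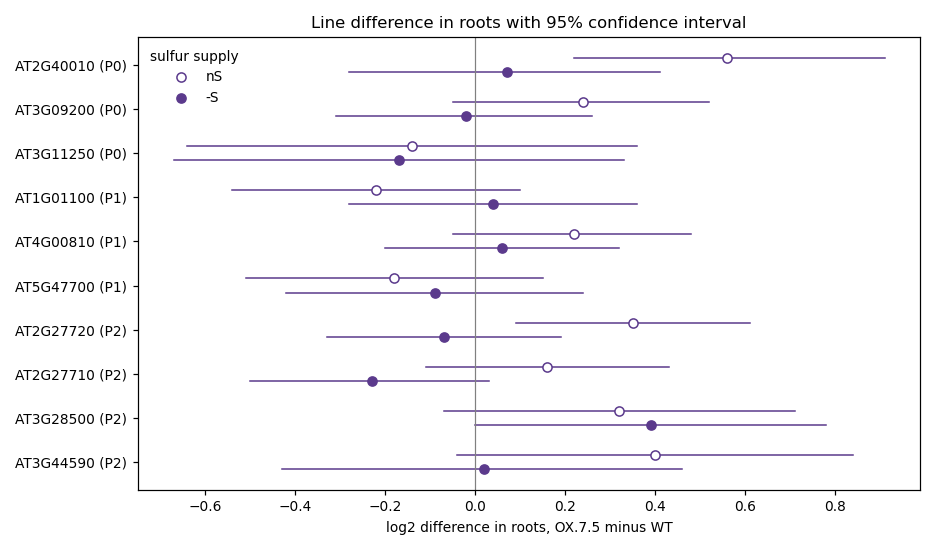
Line difference in roots (x axis, log2, OX.7.5 minus WT) of each stalk gene with its 95% confidence interval, open points for nS and filled points for -S. In nS the points run from -0.22 to 0.56 and the intervals of AT2G40010 and AT2G27720 do not reach 0; in -S they run from -0.23 to 0.39.

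The order of the 4 root groups showed the same arrangement for AT2G40010, AT3G09200 and AT2G27720. WT nS was lowest, OX.7.5 nS came next and did not overlap with it, and the -S groups of both lines were higher still and overlapped with each other. The nS line differences of these genes were not called, and the share of all genes with this order was not counted. For AT4G00810, AT2G27710 and AT3G44590 the nS groups of the lines overlapped, the -S groups overlapped too, and nS and -S were apart.

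Whether the lines differed in their -S response was tested as an interaction. None of the 10 stalk genes was called in roots, where 0.0604% of all genes were, or in shoots, where 0.538% were. In roots the response was smaller in OX.7.5 for 7 of 10, with a median difference of -0.21 beside 0.02 over all genes. An unadjusted p under 0.05 was reached by 3 of the 10, beside 1596 of all 16552 genes. The 3 were AT2G40010 at -0.50 (SE 0.24, unadjusted p of 0.0464), AT2G27720 at -0.42 (SE 0.18, 0.0264) and AT2G27710 at -0.39 (SE 0.18, 0.0426). Their adjusted p were 0.512, 0.451 and 0.505, and on the dimmer probe set of AT2G40010 the value was -0.02 (unadjusted p of 0.949). In shoots 0 of the 10 had an unadjusted p under 0.05, beside 1479 of all genes. The 95% interval for AT4G00810 in roots, -0.52 to 0.22 around -0.15, includes differences close to the size of the rises of AT5G47700.

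Other genes of the stalk and its neighbourhood were read from lists of loci. Of 6 further genes for stalk and stalk-base proteins, all measured, 2 rose in WT roots and 5 in OX.7.5 roots, none fell, and none was called in shoots. The shares of all genes that rose in roots were 12.5% in WT and 10.5% in OX.7.5. In shoots 24.6% and 15.1% of all genes were called in either direction. AT5G40040, a further P2 gene, went from 1.05, 1.10 and 1.20 to 2.27, 2.61 and 2.91 in WT roots, a rise of 1.48, and rose by 1.09 in OX.7.5 (SE 0.19, adjusted p of 1.5e-06 and 9.3e-05). Its signal was under the array median on all 6 nS root arrays and on 2 of 3 -S root arrays in each line, so both rises lay among dim values. Of the plant-specific P3 genes, AT4G25890 rose by 0.63 in WT and 0.90 in OX.7.5 (SE 0.17), and AT5G57290 rose by 0.64 in OX.7.5, with 0.32 in WT (SE 0.18, adjusted p of 0.0124 and 0.232).

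L12, also called uL11, anchors P0 at the base of the stalk together with ribosomal RNA. Of its 3 genes none was called in WT roots and 2 rose in OX.7.5 roots. AT5G60670 read 1.68, 2.03 and 2.18 in OX.7.5 nS roots and 3.02, 3.17 and 2.79 in -S, a rise of 1.03 (SE 0.21, adjusted p of 0.00069), against 0.14 in WT. AT3G53430 rose by 0.69 in OX.7.5 (SE 0.14, adjusted p of 0.00093), against 0.17 in WT. These line differences in response, 0.89 and 0.52, had adjusted p of 0.324 and 0.402 and were not called, though that of AT5G60670 passed the fold rule of the methods (unadjusted p of 0.00594). AT5G60670 was dim, under the array median on all 6 nS root arrays. AT2G37190 changed by 0.19 in each line without a call.

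Of the elongation factors that the stalk recruits, 1 of 2 eEF2 genes had an annotated probe set of its own. The 4 genes for eEF1A had only probe sets shared with other genes, which were not used. With the exchange factor eEF1B, 6 of 12 listed genes had an annotated probe set of their own. Of the 6, 3 rose in WT roots and 1 in OX.7.5 roots, 2 rose in WT shoots and 1 in OX.7.5 shoots, and 1 fell in each of WT shoots, OX.7.5 shoots and OX.7.5 roots. The shares of all genes that rose were 12.5%, 10.5%, 11.8% and 7.78% in the same order. Falls were called for 2107, 1220 and 1637 of all 16552 genes in WT shoots, OX.7.5 shoots and OX.7.5 roots. The other 5 measured genes encode eEF1B, which reloads eEF1A with GTP. AT2G18110 was called everywhere, with rises of 0.53 (WT roots), 0.44 (OX.7.5 roots), 0.90 (WT shoots) and 0.53 (OX.7.5 shoots), each with an SE of 0.13. AT5G19510 rose by 0.61 in WT roots (SE 0.12, adjusted p of 0.00075) and AT1G09640 by 0.35 in WT roots and 0.56 in WT shoots (SE 0.13). AT5G12110 fell by 1.60 in WT shoots, by 1.16 in OX.7.5 shoots and by 0.86 in OX.7.5 roots (SE 0.26, adjusted p of 5.4e-05, 0.00286 and 0.0208). In OX.7.5 roots it was dim, at 2.33, 2.66 and 3.24 in nS and 1.67, 2.09 and 1.89 in -S. All 3 of these -S arrays were under their array median. All 3 falls of the list were those of this gene.

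Before a stalk forms, the P0-like factor MRT4 holds its place on the precursor of the large subunit, and SBDS with the GTPase EFL1 frees the mature subunit for use, roles known from yeast and animals. Of 14 listed genes for assembly and regulation of the stalk 4 were measured. The MRT4-like gene AT1G25260 rose by 0.71 in WT roots and 0.46 in WT shoots (SE 0.14, adjusted p of 0.00065 and 0.0198). The SBDS gene AT1G43860 rose by 0.96 in WT roots, 0.84 in OX.7.5 roots and 0.82 in WT shoots (SE 0.18). The EFL1 gene AT3G22980 rose by 0.65, 1.02 and 0.81 in the same 3 comparisons (SE 0.18). In WT 3 of the 4 thus rose in roots and 3 in shoots, and in OX.7.5 2 rose in roots and none in shoots, where 2 had an unadjusted p under 0.05. The shares of all genes that rose were 12.5% and 11.8% in WT roots and shoots and 10.5% and 7.78% in those of OX.7.5. An unadjusted p under 0.05 was reached by 4267 of all 16552 genes in OX.7.5 shoots. The casein kinase gene AT2G23070 was not called in any of these comparisons.

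The remaining proteins of the 60S subunit give the setting for the stalk. Of 115 listed genes 75 were measured, and 47 of them (62.7%) rose in WT roots and 54 (72.0%) in OX.7.5 roots, with none falling. Their median changes were 0.55 and 0.58, against 0.72 and 0.50 for the stalk genes, and they ranged from -0.32 to 1.82 and from -0.24 to 1.94. Only 1 of the stalk genes, AT2G40010 in WT, lay outside these ranges. The largest root changes among the other 60S genes were those of AT2G32220 (1.82 in WT and 1.94 in OX.7.5), AT2G20450 and AT1G80750 in WT (1.26 each) and AT1G07070 in OX.7.5 (1.33). The smallest were those of AT1G02830 (-0.32) and AT2G47570 (-0.20) in WT and of AT1G36240 (-0.24), AT3G48960 and AT1G02830 (-0.08 each) in OX.7.5. In shoots 6 rose and 1 fell in WT and 2 rose in OX.7.5, with medians of 0.06 and 0.00. The rises were 8.0% and 2.67% of the 75, beside 11.8% and 7.78% of all genes. The stalk genes thus moved in the same organ and direction as the rest of the subunit, and no difference between the sets was tested.

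**Figure D5:**
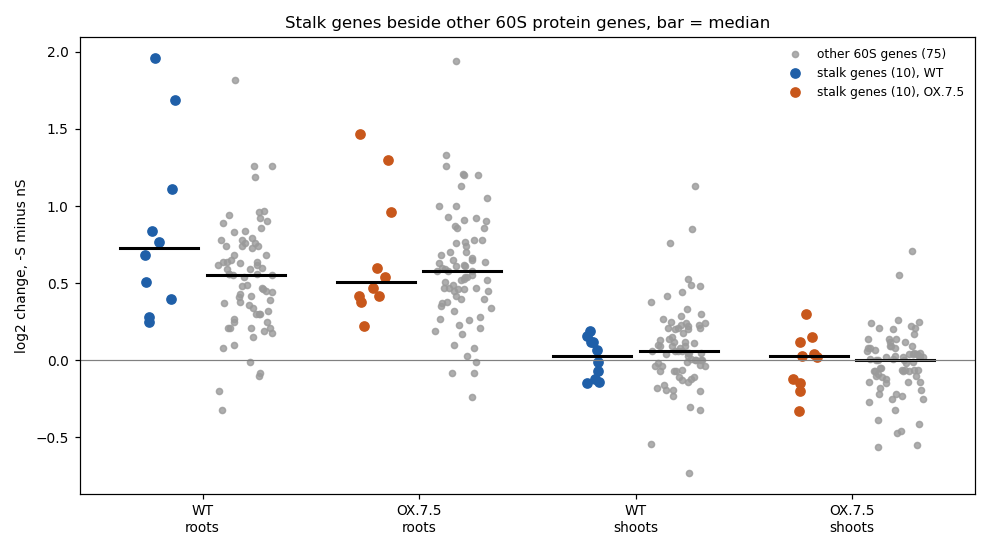
Change under -S (y axis, log2, -S minus nS) of the 10 stalk genes (coloured) and of 75 other 60S protein genes (grey) in each line and organ, 1 point per gene with a bar at the median. In roots both sets sit mostly above 0, with medians of 0.72 and 0.55 in WT and 0.50 and 0.58 in OX.7.5; in shoots both are centred near 0.

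Over the 12 root arrays the stalk genes followed their common mean with Pearson's r between 0.58 for AT3G11250 and 0.973 for AT4G00810 and AT3G44590, a description over arrays that share the groups and in which each gene is part of the mean. Outside the set, the genes most like this mean in roots were AT2G18360 (r = 0.989), AT3G45730 (0.981), AT5G48240 (0.98) and AT1G69790 (0.979). The single most similar gene was AT1G76600 (0.993) for AT2G40010, AT4G38100 (0.993) for AT4G00810 and AT3G52390 (0.991) for AT3G44590. In shoots the stalk genes had less in common, with r to their mean from -0.109 for AT3G11250 to 0.681 for AT5G47700, and the most similar genes were AT5G38195 (0.853), AT5G54580 (0.83), AT2G05600 (0.814) and AT1G77550 (0.81). In both organs these are the highest r of a search over all genes on 12 arrays. The r that such a search gives for unrelated genes was not tested.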

How the data were processed

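Per the labels, the authors used RMA in Partek to make the deposited log2 signals, 1 per probe set (settings and versions not given in the sources used here). From their medians, the arrays of each organ were probably normalized on their own. Of 28583 probe sets, 16746 had exactly 1 gene in the platform annotation. The 758 with several genes and the 11079 with no gene in it were left out of the main fit. Shares over all genes thus cover only genes with an annotated probe set of their own. Among the listed genes, those with a name in place of a locus code mostly lacked one. The brightest single-gene probe set stood for a gene, which left 16552 genes, of which 16418 matched the TAIR10.1 gene table. No genome build is named with the values, so no coordinates are given. The members' classes follow the standard nomenclature for ribosomal proteins, which the annotation does not carry.

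Tests were run in limma 3.58.1 under R 4.3.3. The linear model had 1 mean for each group and took in all 24 arrays (16 residual degrees of freedom, empirical Bayes prior 7.831), as for the multi-factor model of the methods, and tested on simulated data. Contrasts were -S minus nS, OX.7.5 minus WT, their interaction, and the root minus the shoot response. Calls used a Benjamini-Hochberg adjusted p under 0.05 over all 16552 genes, with the rule of the methods (fold of at least 1.5, unadjusted p under 0.05) beside it. Intervals are 95% and come from the same model. No array depth exists, and 3 arrays per group limit the precision. Deviations of same-numbered replicates from their group means were hardly correlated (median r of -0.003 in roots and 0.066 in shoots). The main fit therefore had no block. Alternatives were 1 tissue per fit, no moderation, a replicate block, renewed quantile normalization, median centring, no dim probe sets (mean under 3.397), all probe sets, array weights, each array left out and, added after the results were seen, the dimmer probe set of AT2G40010. Named genes are all members, called genes of the 3 short lists, the 2 largest and 2 smallest root changes of the 60S list and the genes most correlated with the members. The uncalled AT2G37190 and AT2G23070 and the tied AT2G20450 were named outside this rule, after their values were seen. The members and lists were chosen with earlier results of these data known.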

Additional observations from a re-analysis of the deposited data

Results flagged for a closer look

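For 7 stalk genes the change under -S differed between roots and shoots by a test of the difference itself, in 1 or both lines. In WT the root change exceeded the shoot change by 1.85 for AT2G40010, 0.61 for AT3G09200, 1.18 for AT4G00810, 0.98 for AT2G27720, 0.65 for AT2G27710 and 1.49 for AT3G44590. The adjusted p of these 6, from limma, were 4.2e-06, 0.0265, 3.3e-05, 0.00025, 0.0123 and 0.0008. In OX.7.5 the excess was 1.17 for AT2G40010, 1.08 for AT4G00810, 0.80 for AT5G47700, 0.53 for AT2G27710 and 1.15 for AT3G44590, with adjusted p of 0.00117, 0.00015, 0.0171, 0.0489 and 0.00993. The OX.7.5 call of AT2G27710 was kept in 8 of 24 fits with 1 array left out. It was lost with a replicate block (0.0663) and with median centring (0.0518). AT2G40010 gave 0.17 in WT and 0.08 in OX.7.5 on its dimmer probe set (adjusted p of 0.659 and 0.874), so its calls depend on the probe set. AT5G47700 in WT missed narrowly (0.63, adjusted p of 0.0507). It was called when dim probe sets were left out (0.0312), when all probe sets were tested (0.0477) and with array weights (0.0393), and not with a replicate block (0.0596). The call of AT3G09200 in WT was lost without WT shoots nS replicate 1 (0.0789), WT shoots -S replicate 3 (0.0515), WT roots nS replicate 1 (0.0755) or WT roots -S replicate 3 (0.0872).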

How the results depend on the processing

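The WT root rises of AT2G27710, AT2G27720, AT2G40010 (brighter probe set), AT3G09200, AT3G44590 and AT4G00810 were called in all 24 fits with 1 array left out and under all 8 other fits, as were the OX.7.5 root rises of AT2G40010, AT3G44590 and AT4G00810. With 1 array left out the number called was 6 to 8 in WT roots and 4 to 9 in OX.7.5 roots, and for the difference between organs 5 to 7 in WT and 3 to 5 in OX.7.5. All other comparisons stayed at 0. In OX.7.5 roots it was 4 without nS replicate 1, 5 without nS replicate 2 and 5 without -S replicate 2, and 3 between organs without OX.7.5 roots nS replicate 3. By the fold rule of the methods the number in OX.7.5 roots was 4, since that rule demands a fold of at least 1.5, which the smaller rises do not reach. With 1 tissue per fit it was 6, without AT2G27710 (adjusted p of 0.0654) and AT3G09200 (0.0592). The replicate block within a tissue gave 7 in both lines in roots, without AT2G27710 in OX.7.5 (0.0552), and 6 and 4 between organs. Same-numbered replicates had a median correlation of deviations of -0.003 in roots and 0.066 in shoots, beside 0.001 and 0 for differently numbered ones. These values cannot settle whether the numbers pair the arrays. No call changed direction under any of these alternatives, while 12 uncalled values did so under another setting and 59 with an array left out. The 3 arrays per group and dim signals, of AT3G28500, of AT2G40010 in WT nS roots and of AT3G11250 in OX.7.5 -S shoots, limit what can be said.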
